A study of Mus musculus with 4 samples.

Results

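Rnf128 and 6 other genes linked to T cell anergy or to the ligases that act in it (Cblb, Cbl, Itch, Peli1, Ndfip1 and Nedd4) were followed in single-cell RNA-seq of α-lymphoid progenitors (αLPs) from mouse bone marrow. The 7 genes are 7 of the 26421 genes listed in the count tables, and each had reads in both experiments. Rnf128 was chosen by its measured values in these cells, a high level in wild-type (WT) Il1rl1+ cells and a low level in G3SEKO Il1rl1+ cells. These values, and the values of the other 6 genes in the same comparisons, are therefore a description with no test.

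The αLPs were sorted from bone marrow as lineage-negative CD127+ FLT3- LPAM-1+ cells of mice aged 6 to 12 weeks, of the strain C57BL/6 per the labels, and the G3SEKO line was made in C57BL/6J per the methods. G3SEKO mice lack a tandem of super-enhancers downstream of Gata3, removed with CRISPR-Cas9 in the mouse line and not in a single cell type. Cells of 10 WT and 8 G3SEKO mice were pooled in experiment 1, and of 7 WT and 9 G3SEKO mice in experiment 2. Both genotypes of an experiment shared 1 library, in which hashtag antibodies to MHC class I marked the cells. The experiments also differed in the bones, femur and tibia in experiment 1 and further limb, shoulder and hip bones as well in experiment 2, and per the labels in the sorter, the FACSAria II and then the BD Melody. The bones, the sorter and the experiment cannot be told apart. A genotype within an experiment is thus 1 sample, and n = 2 experiments throughout.

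Rnf128 encodes GRAIL, a transmembrane E3 ubiquitin ligase with a protease-associated domain and a RING domain, named as the gene related to anergy in lymphocytes. E3 ligases choose the proteins that receive ubiquitin, and in T cells several of them lower antigen receptor signalling and help to hold cells in anergy, a state of unresponsiveness. Cbl and Cblb are RING ligases that restrain signalling from antigen receptors, and Peli1 is a RING-like ligase of the Pellino family that acts below IL-1 and Toll-like receptors. Itch and Nedd4 are HECT ligases of the NEDD4 family, and Ndfip1 is a membrane adaptor that recruits and activates them. ILC2s express the IL-33 receptor ST2, encoded by Il1rl1, which belongs to the IL-1 receptor family.

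After the limits on reads, mitochondrial reads and Id2, experiment 1 held 681 WT cells (median 396198 reads) and 43 G3SEKO cells (median 509911 reads). Experiment 2 held 5130 WT cells (median 29677 reads) and 1159 G3SEKO cells (median 42814 reads). The G3SEKO cells were the deeper ones in both experiments. The tables shared 11 cell barcode numbers, where 8.9 would be shared by chance. Labels of experiment 2 list both of its hashtags, A0302 and A0303, under WT and name none for G3SEKO. Every G3SEKO value of experiment 2 rests on reading A0303 as G3SEKO, and in experiment 1, whose labels name the hashtags of both genotypes, the G3SEKO values come from few cells. Methods of the study state that mice of both sexes were used, and in every sum of cells 4 Y-linked genes were each at 10.8 CPM (reads scaled to a library of 1000000) or less, while Xist was at 508 CPM or more.

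A cell counted as positive for a gene, written with +, where ln(1 + reads per 10000) of that gene reached 1, and this limit is the gate value. Il1rl1+ cells came first, then Zbtb16+ cells without Il1rl1, then Icos+ cells without Zbtb16 and Il1rl1, and the remaining cells were called other. Zbtb16 encodes PLZF, a factor of ILC precursors (ILCPs), and Icos a costimulatory receptor that rises on the way to ILC2s. The Il1rl1+ gate held 424 WT and 2 G3SEKO cells in experiment 1 and 3548 WT and 50 G3SEKO cells in experiment 2. The Zbtb16+ gate held 98 and 20, then 230 and 375 cells, and the Icos+ gate 84 and 7, then 574 and 345 cells. The label of Il1rl1+ cells as ILC2-like held for WT cells by summed levels only. Of 10 ILC2 markers, which include Il1rl1, 7 and 8 reached 10 CPM there in experiments 1 and 2, the order of all paired values here. That count did not set the gate apart, with 8 and 8 in WT Icos+ and 9 and 8 in WT other cells. The 10 markers summed to 4389 and 4449 CPM, the highest of the 4 WT gates. The summed level of 6 ILCP markers, 319.6 and 204.5 CPM, was the lowest. In G3SEKO Il1rl1+ cells 4 and 6 of the 10 ILC2 markers reached 10 CPM, and the 10 summed to 1694 and 3749 CPM. Of the 7 ILC2 markers compared, 2 were at least 2-fold higher than in WT and 4 lower in experiment 2. Rora was the highest of the 10, at 1165 and 1414 CPM. The ILCP markers summed to 3364 and 2565 CPM in these G3SEKO cells. Il18r1 was at 1168 and 877 CPM there, against 118 and 53.6 CPM in WT, and Il2ra at 2.22 and 151 CPM, against 499.9 and 582 CPM. Gata3 was at 211 and 294 CPM in G3SEKO and 1387 and 1039 CPM in WT Il1rl1+ cells. These cells are therefore called by their gate, and the part of their different makeup in the values below was not tested. The 2 G3SEKO cells of experiment 1 also held 1663 CPM of the NK cell gene Klrd1. In experiment 2 the G3SEKO Il1rl1+ cells held 322 CPM of LTi/ILC3, 139 CPM of NK/ILC1 and 103 CPM of B lineage markers, against 38.5, 19.9 and 35.7 CPM in WT. Mast cell and basophil markers summed to 343 CPM there against 84.6 CPM in WT, and proliferation genes to 219.5 CPM against 109 CPM. Each mean of both experiments, and each call in both, between genotypes in this gate depends on the 2 G3SEKO cells of experiment 1.

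On GRCm38, the GENCODE annotation places Rnf128 on the plus strand of chromosome X (139563316 to 139673145). Cblb lies on chromosome 16 (52031225 to 52208048), Cbl on chromosome 9 (44142976 to 44234049), Itch on chromosome 2 (155133509 to 155226855) and Peli1 on chromosome 11 (21091291 to 21150323). Nedd4 is also on chromosome 9 (72662346 to 72749852). RefSeq promoter windows of GRCm38.p6 matched 5 of the 7 genes, with 6 windows in all. The window of Rnf128, chrX:139610370-139610619 on the plus strand, covers the 250 bases before a start inside the GENCODE gene, and is shown because Rnf128 differed most between the genotypes among the 7 genes.
Rnf128 promoter: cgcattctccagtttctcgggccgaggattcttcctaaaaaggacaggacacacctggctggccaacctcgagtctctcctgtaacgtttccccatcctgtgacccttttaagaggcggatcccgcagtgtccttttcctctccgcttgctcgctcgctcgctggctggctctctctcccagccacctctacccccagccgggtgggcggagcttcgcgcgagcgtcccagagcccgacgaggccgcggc
It was searched on both strands for GATAA, a form of the GATA core, and TGTGGT, a RUNX core, and is in lower case throughout because it held neither. The other 5 windows held neither motif, and over all 32851 windows of the same length 22.58% held GATAA and 14.05% held TGTGGT. Of these 250 bases, 63.2% were G or C, against a median of 52.4% over all windows.

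Among WT cells, Rnf128 was highest in the Il1rl1+ gate and lowest in the Zbtb16+ gate in both experiments. In Il1rl1+ cells it reached 384 CPM in experiment 1 (95% exact Poisson interval 381 to 387) and 537 CPM in experiment 2 (533 to 541). Intervals of levels and of their ratios here cover the counting error of reads only. Reads of 1 molecule were not collapsed, so these intervals can be much narrower than the counting error of molecules. No interval here covers the spread between mice. The other gate followed with 136 and 429 CPM, and the Icos+ gate with 109 and 248.5 CPM. The Zbtb16+ gate had 1.28 CPM of Rnf128 in experiment 1 but 44.9 CPM in experiment 2, and the experiments disagreed most at this stage. The difference between Il1rl1+ and Zbtb16+ WT cells was 8.22 and 3.58 on the log2 scale, with a mean of 5.90 ± 3.28 (SD, n = 2 experiments), and the mean was 1.97 with gates at any read. The order of the 4 gates was the same in both experiments.

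**Figure D1:**
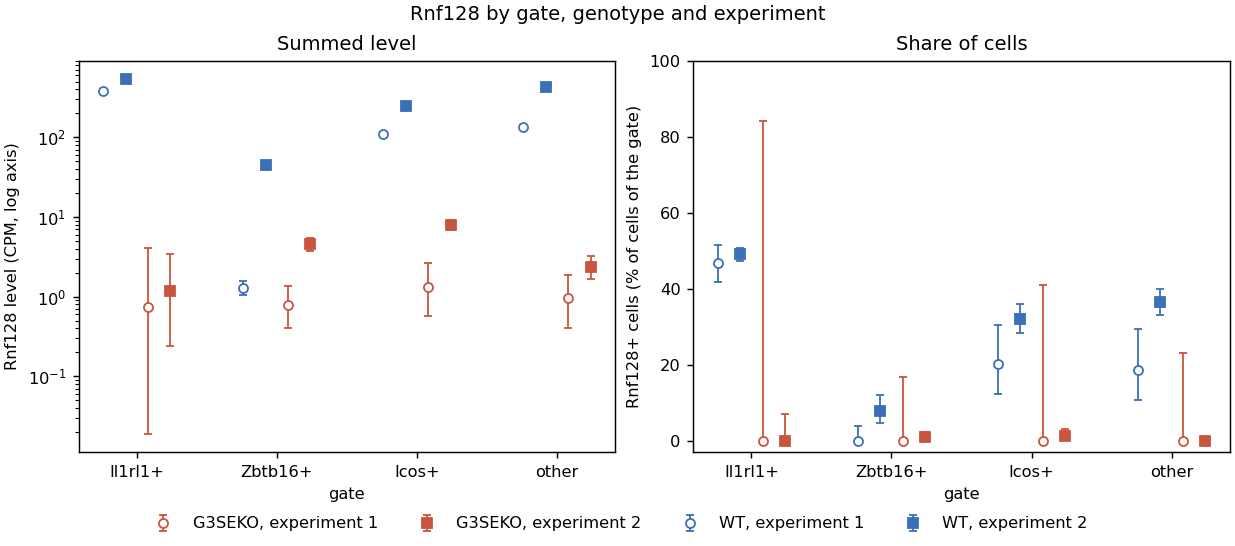
Level of Rnf128 in CPM on a log axis (left) and percent of cells at or above the gate value for Rnf128 (right), by gate, genotype (blue WT, red G3SEKO) and experiment (open circles 1, filled squares 2), with 95% exact Poisson or binomial intervals. WT Il1rl1+ cells sit at 384 and 537 CPM and all 8 G3SEKO sums at 7.97 CPM or less.

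Rnf128 was not uniform among WT Il1rl1+ cells. It reached the gate value in 198 of 424 cells of experiment 1, which is 46.7% (95% exact binomial interval 41.9 to 51.6), and in 1741 of 3548 cells of experiment 2, which is 49.1% (47.4 to 50.7). Among Icos+ WT cells the shares were 20.2% and 32.1%, and among other WT cells 18.7% and 36.5%. In Zbtb16+ WT cells, experiment 1 had 0 of 98 cells that reached it, where 3 cells would be 3.06% and the exact interval reaches 3.69%, and 18 of 230 cells (7.83%) did in experiment 2. The share of cells with any read gives another picture in the deeper experiment 1, where 54.1% of Zbtb16+ WT cells had a read at a level of 1.28 CPM. There 42.3% of WT Klrd1+ cells without Il1rl1 had a read, at 1.30 CPM and a median depth of 447775 reads. The share of cells with a read in the Zbtb16+ gate of experiment 1 is therefore not read as expression. After every cell was thinned to the depth limit of experiment 2, 51.9% and 53.9% of WT Il1rl1+ cells and 2.04% and 9.57% of WT Zbtb16+ cells had a read.

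Hashtags A0307, A0308 and A0309 marked the WT cells of experiment 1, and the labels do not say whether a hashtag stands for 1 mouse. In the Il1rl1+ gate Rnf128 was at 395 CPM in cells with A0307, 346 CPM with A0308 and 410 CPM with A0309, so the hashtags lay close together. In the Icos+ gate they spread over 30.8, 84.5 and 257 CPM, and in the other gate over 64.2, 115 and 380 CPM, with 13 to 36 cells each. In the Zbtb16+ gate all 3 were between 1.16 and 1.35 CPM.

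In G3SEKO cells Rnf128 was close to absent in every gate. The 50 Il1rl1+ cells of experiment 2 held 3 reads of Rnf128, 1 read each in 3 cells, which is 1.17 CPM (0.241 to 3.42). None of the 50 cells reached the gate value, where 3 cells would be 6% and the exact binomial interval reaches 7.11%. The level in WT was 459 times that in G3SEKO, with a counting interval of 157 to 2226. The 2 cells of experiment 1 held 1 read, at 0.741 CPM, a ratio of 518 (93.0 to 20468). On the log2 scale the differences were -8.98 and -8.81, with a mean of -8.89 ± 0.12 (SD, n = 2 experiments). Both G3SEKO levels were at or under what 3 reads would give, 2.22 and 1.17 CPM, so this SD is no measure of precision. With the genotype taken from hashtag reads, which adds cells the authors named doublets to the G3SEKO sum of experiment 2, the mean was -5.46 and the value of experiment 2 -1.95. Of the 9202 genes with a mean of 10 CPM in this comparison, 10.1% were at least 2-fold lower in G3SEKO and 3.29% at least 2-fold higher in both experiments, and Rnf128 was the only 1 of the 7 genes among either set. In experiment 2 alone the directions were nearly even, with 1400 genes higher and 1334 lower of 9454. The values of Rnf128 chose it, so nothing is read from its place among these genes.

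The low level in G3SEKO was not limited to the Il1rl1+ gate. In Icos+ cells Rnf128 was at 1.33 and 7.97 CPM in G3SEKO and 109 and 248.5 CPM in WT, a WT level that was 81.7 (41.4 to 189) and 31.2 times as high (26.8 to 36.5). In this gate all 5 LTi/ILC3 markers were at least 2-fold higher in G3SEKO in both experiments, summing to 1339 and 505 CPM against 162 and 119 CPM in WT. The 6 NK/ILC1 markers summed to 42.4 and 302.5 CPM in G3SEKO and 325 and 33.3 CPM in WT. The 6 ILCP markers summed to 2188 and 2185 CPM in G3SEKO and 1416 and 658 CPM in WT. The part of these cells in the Icos+ values of Rnf128, Cbl and Peli1 was not tested. In the other gate it was at 0.947 and 2.37 CPM, and WT was 144 (72.8 to 333) and 181 times as high (132 to 256). The 14 G3SEKO cells of the other gate in experiment 1 held 36480 CPM of 6 myeloid markers, against 15.7 CPM in WT. In experiment 2 the other gate held 791 CPM of LTi/ILC3, 474 CPM of NK/ILC1 and 2371 CPM of ILCP markers in G3SEKO, against 231, 90.0 and 511 CPM in WT. The part of these cells in the values was not tested. In the Zbtb16+ gate, where the WT level was lowest, the G3SEKO levels were 0.787 and 4.55 CPM, and WT was 1.62 (0.888 to 3.24) and 9.87 times as high (8.12 to 12.1).

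Over all gates, 0 of 43 G3SEKO cells of experiment 1 and 7 of 1159 of experiment 2 (0.604%, 0.243 to 1.24) reached the gate value for Rnf128, against 229 of 681 and 2227 of 5130 WT cells. Those 7 cells, 3 in the Zbtb16+ and 4 in the Icos+ gate, carried 186 of the 331 Rnf128 reads of the G3SEKO cells, and the cell with the most had 57. Without them the G3SEKO level of experiment 2 was 2.20 CPM. WT cells below the gate value were at 13.4 and 21.8 CPM.

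Rnf128 varied with Il18r1, the IL-18 receptor chain that ILCPs carry, within 3 gates of WT cells. Il1rl1+ Il18r1- WT cells were at 444 CPM (366 cells) and 558 CPM (3358 cells), and Il1rl1+ Il18r1+ WT cells at 103 CPM (58 cells) and 240.1 CPM (190 cells). The same order held in the Icos+ gate, with 330.04 and 353 CPM in Il18r1- cells and 12.6 and 53.0 CPM in Il18r1+ cells, and in the other gate, with 219 and 499.6 CPM against 22.0 and 92.4 CPM. The Il18r1+ cells had more reads per cell, a median of 38574 against 30703 in the Il1rl1+ gate of experiment 2.

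Most G3SEKO Il1rl1+ cells were Il18r1+, and values divided by Il18r1 are given as a description, since Rnf128 was chosen by its values in this gate. Among Il1rl1+ Il18r1+ cells of experiment 2 the WT level of Rnf128 was 240.1 CPM, and the 37 G3SEKO cells were at 1.38 CPM. The 13 G3SEKO Il1rl1+ Il18r1- cells had 0 reads, where 3 reads would be 7.71 CPM, against 558 CPM in WT. In Icos+ Il18r1+ cells of experiment 2, 283 G3SEKO cells were at 8.07 CPM and 126 WT cells at 53.0 CPM.

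**Figure D2:**
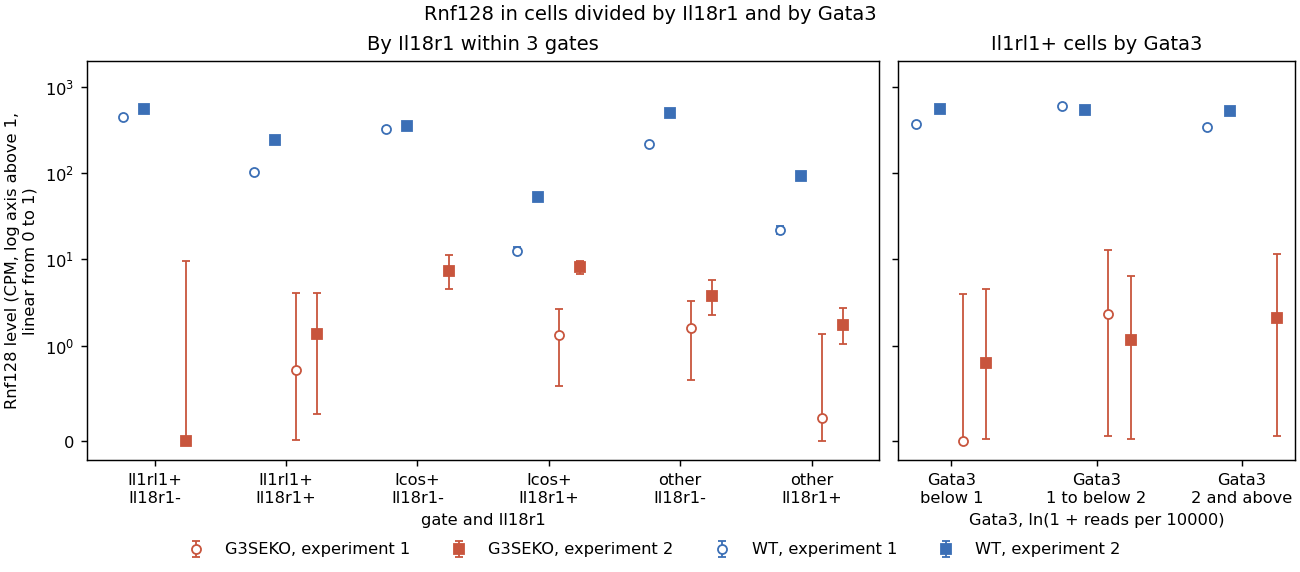
Level of Rnf128 (CPM, log axis above 1 and linear from 0 to 1) in cells divided by Il18r1 within the Il1rl1+, Icos+ and other gates (left) and in Il1rl1+ cells divided by the value of Gata3 (right), with 95% exact Poisson intervals, colours for genotype and symbols for experiment. WT Il18r1+ cells lie under WT Il18r1- cells in each gate, while WT levels stay between 344 and 596 CPM across the Gata3 bins.

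Division of Il1rl1+ cells by their Gata3 value gave no such order in WT. In experiment 2 Rnf128 was at 549 CPM in the 839 WT cells with Gata3 below 1, 540.1 CPM in 816 cells from 1 to below 2, and 532 CPM in 1893 cells at 2 and above. In experiment 1 the same bins were at 372, 596 and 344 CPM, with 33, 70 and 321 cells. G3SEKO Il1rl1+ cells of experiment 2 were at 0.822, 1.15 and 2.08 CPM in the same bins, with 1 read in each. These values are among those that chose Rnf128, and the bins do not match the genotypes in Gata3 within a bin.

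Zbtb16+ cells were divided by Icos to follow the step towards ILC2s. In WT, Rnf128 was at 1.45 and 38.2 CPM in Zbtb16+ Icos+ cells and at 1.19 and 52.8 CPM in Zbtb16+ Icos- cells, and the values with and without Icos lay within 2-fold of each other in each experiment. In G3SEKO the values were 0.821 and 5.45 CPM with Icos and 0.755 and 3.75 CPM without it. Ccr6+ cells without Il1rl1, marked by a chemokine receptor of LTi-like cells, were at 3.19 and 14.6 CPM in WT and 1.23 and 2.59 CPM in G3SEKO, with 2 cells of each genotype in experiment 1.

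Among the ligases that restrain antigen receptor signalling, Cbl was higher in G3SEKO than in WT Il1rl1+ cells. In experiment 2 the WT level was 159 CPM and the G3SEKO level 301.4 CPM, and in experiment 1 they were 152 and 504 CPM, where the 2 G3SEKO cells were at 2.33 and 738 CPM. The difference was 1.33 ± 0.57 on the log2 scale (SD, n = 2), and 0.92 in experiment 2. Without cells positive for other lineages or Mki67, where experiment 1 keeps 1 G3SEKO cell, the mean turned to -2.50, while experiment 2 gave 1.01. In Icos+ cells Cbl was at 161 and 152 CPM in WT and 311.5 and 248 CPM in G3SEKO, the value of experiment 1 coming from 7 G3SEKO cells. The hashtags A0310, A0311 and A0312 among these were at 90.7, 241 and 535 CPM, and so lay on both sides of WT. In Zbtb16+ cells it was at 182 and 239.8 CPM in WT and 202 and 239.99 CPM in G3SEKO. From Zbtb16+ to Il1rl1+ WT cells the difference was -0.43 ± 0.24, the opposite direction to that of Rnf128.

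Cblb reached the gate value in 1.19% to 9.33% of the WT cells of a gate. It was at 25.4 and 34.0 CPM in WT Il1rl1+ cells, at 35.6 and 33.0 CPM in WT Zbtb16+ cells, and at 8.70 and 46.8 CPM in WT Icos+ cells. In G3SEKO Il1rl1+ cells it was at 6.67 and 49.5 CPM. The log2 differences between genotypes in this gate, -1.93 and 0.54, had opposite signs, and the experiments disagreed likewise in the Icos+ and other gates.

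Peli1 was the gene of the 7 besides Rnf128 that passed 2-fold from Zbtb16+ to Il1rl1+ WT cells. It was at 87.1 and 82.2 CPM in WT Zbtb16+ cells and at 241 and 244 CPM in WT Il1rl1+ cells, a difference of 1.52 ± 0.07 on the log2 scale (SD, n = 2). With gates at any read the mean was 0.65 ± 1.21, and the value of experiment 2 was 1.51. Those gates left 11 WT Zbtb16+ cells in experiment 1. Besides Rnf128, whose values chose it, Peli1 was the only 1 of the other 6 genes at least 2-fold higher in both experiments and none was lower, where over 9667 genes 4.2% were higher and 5.96% lower. This comparison is among those that chose the genes, and nothing is read from the count. WT Icos+ cells were between these levels in both experiments, with 93.5 and 171 CPM, and WT other cells were at 199 and 227 CPM.

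In G3SEKO, Peli1 was at 127 CPM in Il1rl1+ cells of experiment 2, between WT Zbtb16+ and WT Il1rl1+ cells, and at 7.41 CPM in experiment 1 from 10 reads. The differences from WT were -0.94 and -5.02, a mean of -2.98 ± 2.89. With gates at 2, the difference in experiment 2 was 0.07. In Icos+ cells Peli1 was at 11.0 and 90.4 CPM in G3SEKO against 93.5 and 171 CPM in WT, and in the other gate at 83.0 and 131 CPM against 199 and 227 CPM. In Zbtb16+ cells the genotypes overlapped, with 103 and 83.8 CPM in G3SEKO. Among the 13 Il1rl1+ Il18r1- G3SEKO cells of experiment 2 Peli1 was at 259.6 CPM (211 to 315.4), against 247 CPM in WT. This interval counts reads of 1 pooled sample and gives no spread between cells or mice. Among the 37 Il18r1+ cells Peli1 was at 104 CPM against 204 CPM in WT.

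**Figure D3:**
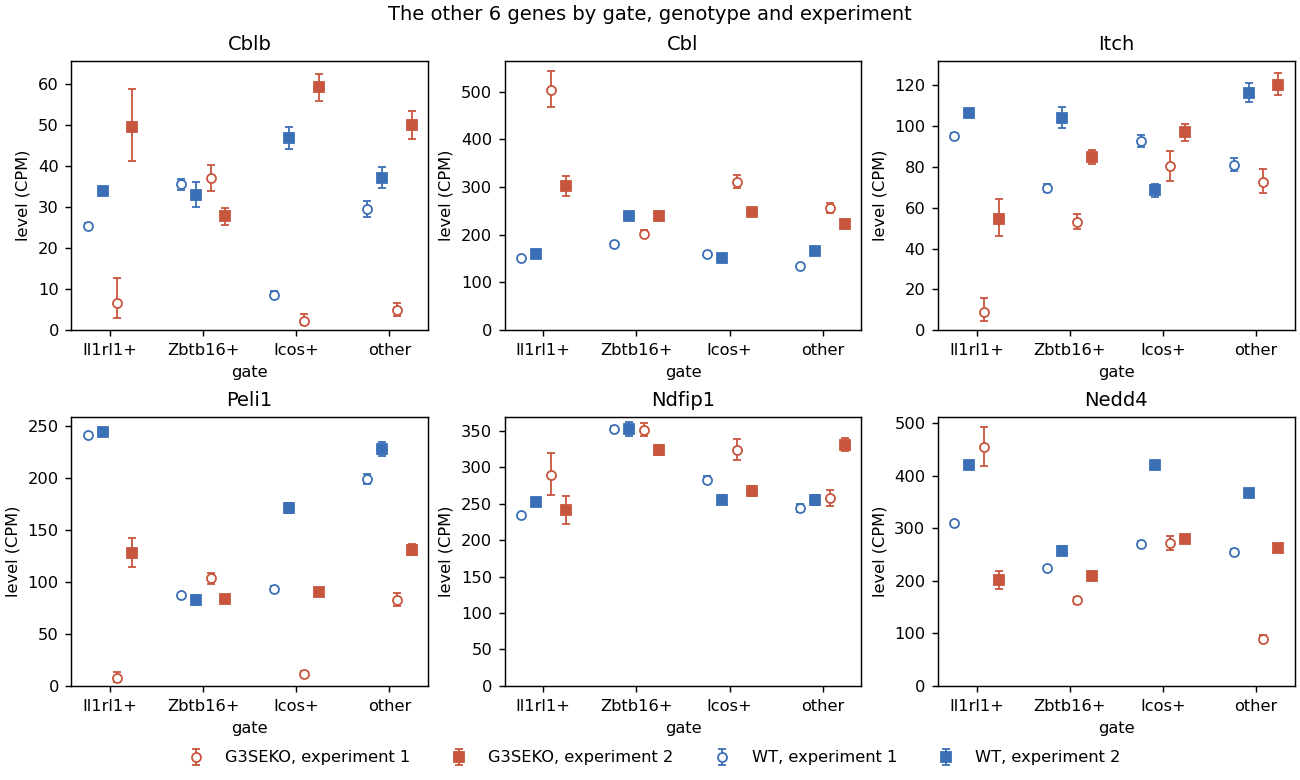
Levels of Cblb, Cbl, Itch, Peli1, Ndfip1 and Nedd4 in CPM by gate, genotype (blue WT, red G3SEKO) and experiment (open circles 1, filled squares 2), with 95% exact Poisson intervals and axes from 0. Peli1 is at 241 and 244 CPM in WT Il1rl1+ cells and at 87.1 and 82.2 CPM in WT Zbtb16+ cells, and Ndfip1 stays between 234 and 353 CPM in all 16 sums.

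The HECT ligase Nedd4 was at 225 and 257 CPM in WT Zbtb16+ cells, 271 and 421 CPM in WT Icos+ cells and 311.1 and 421 CPM in WT Il1rl1+ cells. The difference from Zbtb16+ to Il1rl1+ cells was 0.59 ± 0.17 on the log2 scale, under 2-fold in both experiments. In G3SEKO Il1rl1+ cells it was at 455 and 202 CPM, higher than WT in experiment 1 and lower in experiment 2, and the differences were 0.55 and -1.06. In Zbtb16+ cells it was at 163 and 209 CPM in G3SEKO, under both WT values. Itch, which targets JunB for degradation, was at 69.5 and 104 CPM in WT Zbtb16+ and 95.1 and 106 CPM in WT Il1rl1+ cells, a difference of 0.24 ± 0.30. In G3SEKO Il1rl1+ cells it was at 8.89 CPM from 12 reads and at 54.6 CPM, differences of -3.42 and -0.96, while the Icos+ gate gave -0.21 and 0.50. The adaptor Ndfip1, on chromosome 18 (38410396 to 38465303), was at 353 and 352 CPM in WT Zbtb16+ cells and 234 and 252 CPM in WT Il1rl1+ cells, a difference of -0.54 ± 0.08. Its values in G3SEKO Il1rl1+ cells, 289.7 and 241 CPM, lay on both sides of those in WT.

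**Figure D4:**
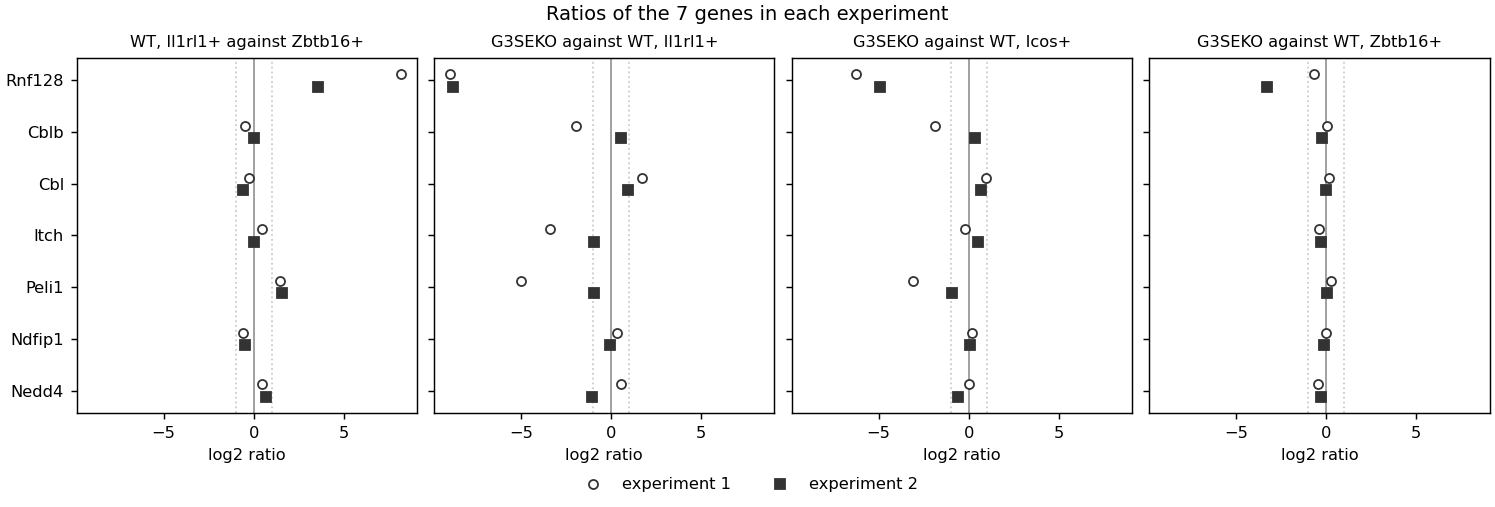
Log2 differences of the 7 genes in 4 comparisons, 1 point per experiment (open circles 1, filled squares 2), with dotted lines at 2-fold. Rnf128 lies at -8.98 and -8.81 between the genotypes in Il1rl1+ cells, and each of the other 6 genes lies within 2-fold in both experiments in Zbtb16+ cells.

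Comparisons that did not choose the genes could be tested for the 6 genes other than Rnf128, with edgeR's quasi-likelihood test over all genes and the experiment as a block. Between the genotypes in Zbtb16+ cells none of the 6 was called, with an adjusted p of 0.9998 for each, and the largest log2 difference was -0.34 ± 0.18 (SE) for Nedd4. In Icos+ cells Cbl differed by 0.88 ± 0.32 (unadjusted p = 0.0366) and Peli1 by -1.94 ± 0.68 (unadjusted p = 0.0328), and both had an adjusted p of 0.99998 in edgeR. Between WT Icos+ and Zbtb16+ cells Nedd4 differed by 0.54 ± 0.18 (edgeR adjusted p = 0.367), Peli1 by 0.62 ± 0.30 (adjusted p = 0.532) and Ndfip1 by -0.35 ± 0.14 (adjusted p = 0.469).

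None of the 6 genes passed the test, and edgeR called no gene of the tables. In Zbtb16+ cells edgeR called 0 of 16675 genes (0%), with 293 at an unadjusted p under 0.05 and 49 called by DESeq2. In Icos+ cells it called 0 of 16637 genes (0%), with 327 at an unadjusted p under 0.05 and 61 by DESeq2. Between the WT gates it called 0 of 18055 genes (0%), with 2133 at an unadjusted p under 0.05 and 1382 by DESeq2. None of the 6 genes was called by DESeq2 in any of these. With counts simulated at the spread of these sums, 4-fold changes were called for 31.9%, 10.5% and 38.1% of the changed genes in these comparisons. Most differences of that size would thus have been missed, and the simulated counts held no difference between experiments. Between the WT gates even the gate gene Zbtb16, at -5.97 ± 0.33 on the log2 scale, was not called (edgeR adjusted p = 0.135). The lack of a call for the 6 genes therefore says little about them.

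Cells with and without Rnf128 were set side by side within WT Il1rl1+ cells, as a description with no test. Il18r1 was at 48.2 and 24.4 CPM in cells at the gate value for Rnf128 and at 181 and 87.3 CPM in the rest, and Tcf7, a factor of early ILC precursors, at 29.0 and 33.5 CPM against 80.6 and 53.4 CPM. Rora was at 451 and 463 CPM against 753 and 606 CPM. Of 3 effector genes of ILC2s, Il13 was at 1.26 and 1.40 CPM against 11.7 and 5.37 CPM, Il5 at 5.65 and 1.77 CPM against 4.90 and 8.22 CPM, and Areg at 4.02 and 13.8 CPM against 8.42 and 14.6 CPM. Il2ra was higher in the cells with Rnf128, at 604 and 632 CPM against 406 and 524 CPM. Other ILC2 markers did not follow it, with log2 differences of -0.63 and -0.17 for Klrg1, -0.04 and -0.18 for Bcl11b and 0.01 and -0.27 for Il17rb. Of further ILCP markers, Zbtb16 differed by -1.31 and -0.05, Pdcd1 by -0.08 and -0.87, Tox2 by -2.30 and -0.31, and Tox by -0.08 and -0.005. The 6 genes other than Rnf128 differed by -0.29 to 0.36 on the log2 scale, and Gata3 by -0.31 and -0.01. Cells with Rnf128 had a median of 34676 reads in experiment 2, and those without 28271.

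The relatives and partners of the 7 genes were taken as lists, and each list is read beside all genes compared. Between the genotypes in Il1rl1+ cells, the median difference of all 9202 genes was 0.03 in experiment 2 and -2.64 in experiment 1, where 2 cells leave many genes at 0, so medians are given for experiment 2. The median of the 7 genes there was -0.94. Of the PA-TM-RING ligases, the family of Rnf128, 8 of 11 were in the tables and 7 were compared, with a median of 0.78. Rnf13 and Rnf150 were at least 2-fold higher in G3SEKO in both experiments and none was lower, where over all genes compared 3.29% were higher and 10.1% lower, shares that hold for the lists that follow too. Rnf13, an endosomal ligase, was at 25.5 and 35.6 CPM in WT and 60.8 and 85.8 CPM in G3SEKO, and Rnf150 at 0.995 and 1.01 CPM in WT and 127 and 5.07 CPM in G3SEKO. Rnf150 reached the mean of 10 CPM only through the 2 G3SEKO cells of experiment 1.

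Of the other NEDD4 family ligases and adaptors, 6 of 8 were compared, with a median of 0.06. Wwp1 was higher, at 44.9 and 36.6 CPM in WT and 138 and 94.0 CPM in G3SEKO, and Smurf1 was lower, at 17.1 and 22.8 CPM in WT and at 0 and 5.46 CPM in G3SEKO. Of the CBL and Pellino paralogs 1 of 4 was compared and did not pass 2-fold. Of the regulators and substrates of GRAIL, 7 of 9 were compared, with a median of -0.58, and Cd81, a tetraspanin that GRAIL can mark with ubiquitin, was lower, at 184 and 242 CPM in WT and 1.48 and 95.5 CPM in G3SEKO. None of the 15 targets of CBL, ITCH and PELI1 and none of the 7 deubiquitinases passed 2-fold in both experiments, with medians of -0.23 and -0.10. Of the T cell anergy programme, 11 of 16 genes were compared with a median of 0.23, and Egr1, an early growth response factor, was lower, at 7.53 and 112 CPM in WT and 0 and 5.85 CPM in G3SEKO. Smurf1 and Egr1 reached the mean of 10 CPM only through WT cells.

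From Zbtb16+ to Il1rl1+ WT cells the same lists were counted beside a median of -0.05 over all 9667 genes, of which 4.2% were higher and 5.96% lower. Of the targets of CBL, ITCH and PELI1, 3 were at least 2-fold higher and 1 lower in both experiments, with a median of 0.06. Of the anergy programme 2 of 11 were higher and none lower (median -0.12), among them Egr1, at 3.05 and 47.3 CPM in Zbtb16+ and 7.53 and 112 CPM in Il1rl1+ cells. Cd81 was higher among the 7 regulators and substrates of GRAIL (median 0.05), at 53.9 and 99.7 CPM in Zbtb16+ and 184 and 242 CPM in Il1rl1+ cells. Of the 8 PA-TM-RING ligases 2 were lower and none higher (median -0.54), Rnf150 being 1 of them at 19.0 and 26.1 CPM in Zbtb16+ cells, through which alone it reached the mean of 10 CPM. Of the 6 NEDD4 family genes 1 was lower (median -0.18), and none of the 7 deubiquitinases (median 0.14) and not the 1 CBL or Pellino paralog compared passed 2-fold. No gene of these lists was called by edgeR in the Zbtb16+ and Icos+ gates.

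By Pearson correlation of log2(CPM + 10) over the sums of gate and genotype, the 5 genes most like Rnf128 among 5617 genes were Denn2b, Il9r, Slc7a8, Ptpn13 and Pcsk1. Their lower r of the 2 experiments was 0.99, 0.98, 0.98, 0.98 and 0.97, over 7 sums in experiment 1 and 8 in experiment 2 that share a library. Il9r, the receptor of a cytokine that sustains ILC2s, was at 85.3 and 122 CPM in WT Il1rl1+ cells, 7.73 and 18.4 CPM in WT Zbtb16+ cells and at most 6.29 CPM in the 8 G3SEKO sums. Slc7a8, an amino acid transporter, was at 166 and 155 CPM, 2.69 and 23.1 CPM and at most 11.3 CPM in the same groups. Of the other 6 genes, Peli1 ranked 176 and Nedd4 253 by this measure, with lower r of 0.67 and 0.61. Cbl was at -0.77 and -0.91, and Cblb did not reach 50 CPM in both experiments.

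**Figure D5:**
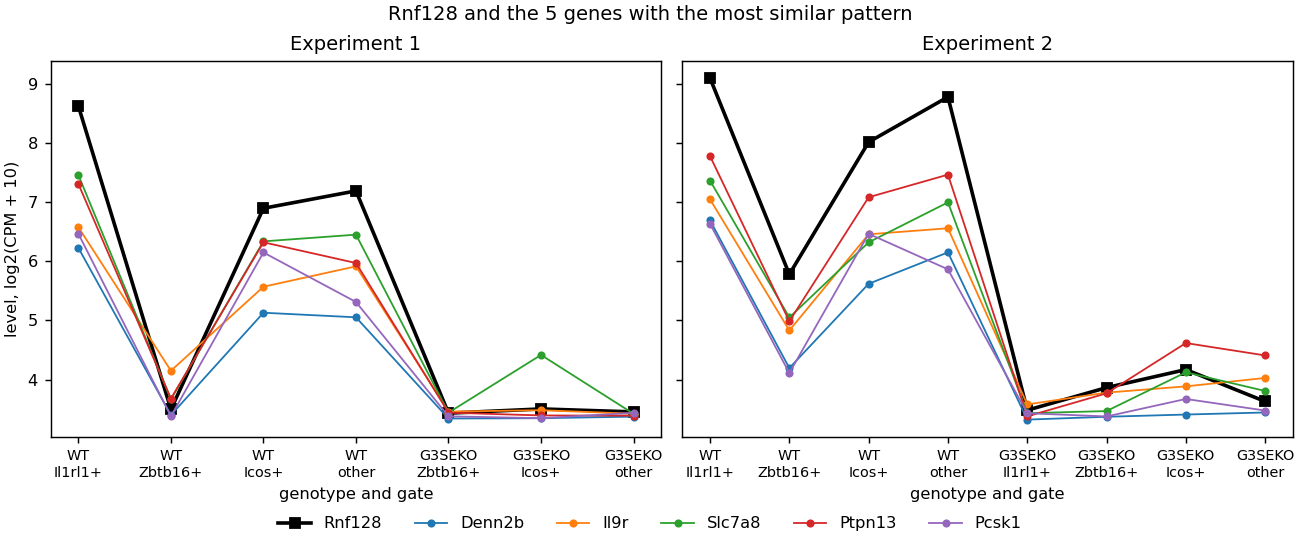
Level as log2(CPM + 10) of Rnf128 (black) and the 5 genes most like it, over the sums of genotype and gate with at least 5 cells, in experiment 1 (left) and experiment 2 (right). All 6 genes are highest in WT Il1rl1+ cells, and in G3SEKO sums none of them exceeds 14.5 CPM.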

How the data were processed

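Both αLP experiments (TAS-Seq on BD Rhapsody) were analysed. The authors deposited counts, 1 whole number of reads for each gene in each cell, made after adapter trimming (Cutadapt) and alignment by Bowtie2 on GRCm38, annotated by Ensembl, and named cells by hashtag. No molecular identifier was used to merge reads. Hashtag read counts of each cell served as an alternative source of the genotype. Cells within the study's limits on reads per cell, with at most 10% mitochondrial reads and ln(1 + reads per 10000) of Id2 at 1 or more, were kept. Cells the authors had named doublets were left out, and no doublet caller was run. Reads were summed per gate, genotype and experiment and given as CPM. Log2 differences were taken after adding 2 reads scaled to each sum. Shares have exact binomial (Clopper-Pearson) and levels exact Poisson intervals, at 95%.

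The 3 tested comparisons used edgeR 4.0.16 (R 4.3.3) with TMM, its filter on low counts, the experiment as a block and Benjamini-Hochberg adjustment over all genes (threshold 0.05), each sum holding at least 5 cells. DESeq2 1.42.0 was an alternative. The pairing within an experiment comes from the design, since both genotypes shared a library. edgeR was tested on simulated counts with 4-fold changes. The members, lists and gates were chosen with earlier results of these data known. The text names the 7 genes, the gate genes, Gata3, Il18r1 and Id2, up to 3 genes per pathway list past 2-fold in both experiments (a mean of at least 10 CPM) between genotypes in Il1rl1+ cells, and the 5 genes most like Rnf128. Other marker genes given beside a result, and those set side by side within WT Il1rl1+ cells, were named after their values were seen. Gene positions are from GENCODE M21, another annotation of the same build than the authors'.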

Additional observations from a re-analysis of the deposited data

Results flagged for a closer look

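Peli1 differed between gates in the direction of its genotype difference, and the difference between gates was not tested. The mean log2 difference of G3SEKO from WT was above 0 in both experiments in the Zbtb16+ gate and below 0 in both in the others. The Il1rl1+ gate lay 3.12 under the Zbtb16+ gate (a difference of -3.12), and the Zbtb16+ gate lay 2.14 above the Icos+ gate and 1.17 above the other gate. Experiment 1 carries most of this. The differences of G3SEKO from WT were -5.02 and -0.94 in the Il1rl1+ gate (10 reads in 2 G3SEKO cells of experiment 1), 0.25 and 0.03 in the Zbtb16+ gate, -3.08 and -0.92 in the Icos+ gate and -1.26 and -0.80 in the other gate. With gates at 2, Peli1 in Il1rl1+ cells of experiment 2 was at 0.07. Ndfip1 was slightly below 0 in the Zbtb16+ gate and above 0 in the Icos+ and other gates in both experiments, with differences of -0.20 and -0.29.

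Signals of Rnf128 also appeared in cells left out of the comparisons as reported, though some alternatives include them, and for cells low in Id2 the WT level was above that in G3SEKO. WT cells with Id2 below 1 were at 176 CPM in experiment 1 (56 cells) and 386 CPM in experiment 2 (945 cells), against 1.57 and 8.91 CPM in G3SEKO cells with Id2 below 1. In experiment 2, the 99 cells named doublets were at 193 CPM. In 68 of them the scaled reads of the G3SEKO hashtag were at least 2-fold above those of the WT hashtag. These 68 were at 199 CPM, and 25 of them reached the gate value. The 6 doublets with the WT hashtag at least 2-fold above were at 6.21 CPM, with 0 at the gate value. The remaining doublets met neither limit.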

How the results depend on the processing

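The lower level of Rnf128 in G3SEKO Il1rl1+ cells kept its direction under every alternative run. The log2 difference of -8.89 moved to -5.46 with the genotype taken from hashtag reads, -6.95 with gates at any read, -8.04 without cells positive for other lineages or Mki67, -7.89 with thinned cells and -9.08 as the mean of each cell's CPM, and lay between -8.98 and -8.81 without either replicate. In experiment 2 the first of these was -1.95, where cells the authors named doublets enter the G3SEKO sum. The difference of Rnf128 between Il1rl1+ and Zbtb16+ WT cells moved from 5.90 to 1.97 with gates at any read and lay between 3.58 and 8.22 without either replicate. That of Peli1 between the same gates moved from 1.52 to 0.65 with gates at any read. That of Cbl between genotypes in Il1rl1+ cells turned from 1.33 to -2.50 without lineage or Mki67+ cells, where experiment 1 keeps 1 G3SEKO cell.

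The count of genes past 2-fold between genotypes in Il1rl1+ cells, 1232, became 714 with hashtag reads, 461 with gates at any read, 8091 with every gene, 324 from 50 CPM and 2734 to 6355 without 1 replicate. Experiment 2 alone gave 1400 higher and 1334 lower genes, against 929 lower of the 1232. More genes were higher than lower from 50 CPM, 200 against 124, and with gates at any read, 256 against 205. The balance of directions thus depends on these choices. Between Il1rl1+ and Zbtb16+ WT cells, 982 became 561, 3482 and 376 with gates at any read, every gene and 50 CPM, and 1587 to 1794 without 1 replicate. The counts of 0 became 4 (thinned cells) and 49 (DESeq2) in Zbtb16+ cells, 37 (thinned), 61 (DESeq2) and 32 (no filter) in Icos+ cells, and 1 (gates at any read), 11 (gates at 2), 443 (thinned), 1382 (DESeq2) and 160 (no filter) between the WT gates. Without the replicate block edgeR called 0 genes in all 3 comparisons, and the pairing changed no call. Gates at 2 left no G3SEKO Il1rl1+ cell in experiment 1, and gates at any read left too few cells to test the genotypes. Leaving out an experiment leaves no spread to test. The pooling of mice limits every genotype value, and the 2 G3SEKO cells of experiment 1 limit those of the Il1rl1+ gate that use it.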

Other observations

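In experiment 2, 3703 genes were at 50 CPM or more in WT cells of each of the Il1rl1+, Icos+ and other gates, and 4 of them were at least 8-fold lower in G3SEKO in all 3 gates. These were Rnf128, Il9r, Ptpn13 and Slc7a8, and the last 3 are also among the 5 genes most like Rnf128. Ptpn13, a large protein tyrosine phosphatase, was at 209, 125 and 167 CPM in WT and 0.390, 14.5 and 11.2 CPM in G3SEKO in these gates. Of the 3503 genes at 50 CPM or more in G3SEKO cells of the 3 gates, none was at least 8-fold higher. This rule was set after the data were seen, and the Il1rl1+ values are those that chose Rnf128.

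Genes near Rnf128 on chromosome X were listed after its values were seen. Within 1 Mb on either side the tables held 10 other genes, of which 4 were at 10 CPM or more in WT cells of all 3 gates (Tbc1d8b, Rbm41, Prps1 and Tsc22d3). Their log2 differences of G3SEKO from WT in experiment 2 ran from -1.03 (Prps1) to 1.33 (Tbc1d8b) in Il1rl1+ cells and from -0.65 (Prps1) to 0.20 (Rbm41) in Icos+ cells. In experiment 1 Tsc22d3, a glucocorticoid-induced gene, had 58.8 CPM among WT Il1rl1+ cells against 23.0 CPM in G3SEKO, with 46.6 against 1.17 CPM in the Icos+ gate and 108 against 11.2 CPM in the other gate. In Il1rl1+ cells of experiment 1 Tbc1d8b, Rbm41 and Prps1 were at 12.1, 12.5 and 31.5 CPM in WT and listed at 0 in the 2 G3SEKO cells, and in the Icos+ gate Tbc1d8b was at 11.55 CPM against 0. In the other gate of experiment 1 the same 3 genes were higher in G3SEKO, at 27.3, 17.2 and 49.1 CPM against 4.25, 3.06 and 27.5 CPM. The experiments thus disagreed in direction for Tbc1d8b, Rbm41 and Tsc22d3 in Il1rl1+ cells.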
